A study of Mus musculus with 29 samples.

Results

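The immediate early genes examined were Fos, Fosb, Jun, Junb, Egr1, Nab2, Ier2, Zfp36, Atf3 and Dusp1, 10 of the 22187 genes in the deposited expression table. They were taken by symbol from a named list. RNA was measured in 29 libraries from mouse liver, 16 from non-tumour liver and 13 from tumours, as CPM, read counts scaled to a common library total. All mice were C57BL/6 and received diethylnitrosamine (DEN), a hepatocarcinogen, at 25 mg/kg when 2 weeks old. The sample labels give the diet as HFD or HFD_alcohol, whereas the design text speaks of pair-fed and liquid ethanol feeding for 18 weeks, and both names are kept here as "HFD" and "alcohol". The genotype labels are WT and IL17RA-/-, the latter denoting loss of the receptor of the cytokine IL-17A. Non-tumour liver gave 5 WT and 5 IL17RA-/- libraries with alcohol, and 3 and 3 with HFD. Tumours gave 3 WT and 4 IL17RA-/- libraries with alcohol, and 3 and 3 with HFD. The labels number the libraries but do not say which mouse each came from, so the p-values measure the spread between libraries, which may be partly technical.

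Immediate early genes are switched on within minutes of a stimulus, from factors already present in the cell, and their mRNAs are short-lived. Growth factor and stress signals reach them through the MAP kinases, which act on factors bound at serum response elements and at cAMP response elements (CREs). Fos, Fosb, Jun and Junb encode subunits of AP-1, a dimeric transcription factor that in liver is known for its part in regeneration and in chemically induced tumours. Egr1 encodes a zinc finger transcription factor, and Atf3 a stress-induced member of the ATF family. Nab2 encodes a corepressor of EGR proteins and is itself an EGR target, Zfp36 encodes tristetraprolin, which speeds the decay of AU-rich mRNAs, and Dusp1 encodes a phosphatase that switches off MAP kinases, so these 3 act as feedback inhibitors. Ier2 encodes a small nuclear protein of the early response.

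Promoter sequence was available from RefSeq (GRCm38.p6) for 8 of the 10 genes and was searched in the 250 bases before each start site, on both strands. The CRE core TGACG, which is also contained in the full CRE TGACGTCA, was present in 5 of the 8 (Atf3, Fosb, Junb, Fos and Dusp1) and in 17.8% of all 32851 promoter windows. The full CRE was present in Dusp1, and in 1.5% of all windows. The EGR site GCGNGGGCG was present in Fosb and Zfp36 (4.7% of all windows), as GCGGGGGCG in both. The CArG box, the core of a serum response element, was present in Zfp36 (1.5% of all windows), and the AP-1 site TGANTCA was in none of the 8 (6.7% of all windows). A match of letters is a description and not evidence of binding. The windows of Fos and Junb, 2 AP-1 genes that were higher in tumours, of Dusp1, which was lower, and of Nab2, which was higher, are printed 5′ to 3′ on the strand of the gene, with matches in capitals. Fos lies on the plus strand (chr12:85473640-85473889), and Junb (chr8:84978749-84978998), Dusp1 (chr17:26508520-26508722) and Nab2 (chr10:127666711-127666900) on the minus strand. The Dusp1 and Nab2 windows are shortened to 203 and 190 bases, leaving out bases that GENCODE places in an exon. The Zfp36 window lies wholly in a GENCODE exon and is not printed.
Fos: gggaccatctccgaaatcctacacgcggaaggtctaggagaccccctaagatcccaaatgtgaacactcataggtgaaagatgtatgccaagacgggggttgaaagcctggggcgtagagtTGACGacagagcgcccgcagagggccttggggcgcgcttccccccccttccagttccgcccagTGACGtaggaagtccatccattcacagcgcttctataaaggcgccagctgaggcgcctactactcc
Junb: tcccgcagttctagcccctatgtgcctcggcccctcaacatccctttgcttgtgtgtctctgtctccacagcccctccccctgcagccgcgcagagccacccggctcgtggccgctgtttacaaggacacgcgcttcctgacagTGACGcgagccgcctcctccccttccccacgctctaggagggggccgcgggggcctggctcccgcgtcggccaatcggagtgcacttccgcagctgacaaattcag
Dusp1: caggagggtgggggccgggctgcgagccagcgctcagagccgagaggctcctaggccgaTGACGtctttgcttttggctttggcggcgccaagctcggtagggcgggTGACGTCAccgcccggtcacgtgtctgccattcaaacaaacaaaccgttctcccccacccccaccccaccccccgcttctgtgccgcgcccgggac
Nab2: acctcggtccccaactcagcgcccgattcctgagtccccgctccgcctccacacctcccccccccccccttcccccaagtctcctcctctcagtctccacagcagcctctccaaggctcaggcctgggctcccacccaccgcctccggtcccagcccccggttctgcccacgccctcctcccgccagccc
Fos carried 2 copies of the CRE core, 129 and 66 bases before its start, and Junb 1 copy at 106 bases. The full CRE of Dusp1 began 143 bases before its start, with a further core at 191 bases. Nab2 held none of the letters searched for in its window. The RefSeq windows of Nab2, Dusp1 and Atf3 lie inside the GENCODE spans of these genes given below, so other start sites were not searched. Sites more than 250 bases before a start were not searched either.

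Library totals, recovered from the CPM steps, ranged from 3213696 to 9660585 counts, and 3 counts corresponded to between 0.311 and 0.934 CPM. Fosb was measured with 0 to 20 counts per library and under 3 counts in 9 of 29, so its values are the least precise, whereas the other 9 genes had 12 or more counts in every library. The targeted gene did not follow the genotype labels. In HFD tumours Il17ra averaged 59.4 ± 4.45 CPM (SD, n = 3) in the libraries labelled IL17RA-/- and 32.8 ± 13.8 (n = 3) in WT, and in no tissue or diet was it called different between the labels (limma, smallest adjusted p = 0.0562). Each genotype comparison is therefore one between libraries by their labels. Across genes at 1 CPM or more in 3 libraries, the WT HFD tumour 4 had a median correlation of 0.934 with the other tumours, the lowest of 13, and of 0.941 with non-tumour libraries. Among non-tumour livers, IL17RA-/- HFD 3 held Afp at 155 CPM and Gpc3 at 263 CPM, and WT HFD 1 held Afp at 141 CPM and Prom1 at 17.7 CPM. Together with the IL17RA-/- alcohol tumour 5, these are called the 4 doubted libraries. That tumour was carried over from earlier work on these data and did not stand apart here (median correlation 0.969 with the other tumours, 9th from the lowest of 13). For the whole list of tumour markers (6 genes in the table), the summed level ran from 11.0 to 499 CPM in non-tumour liver and from 289 to 1050 CPM in tumours.

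Averaged over the 4 tumour groups, Egr1, Nab2, Junb, Fos and Ier2 rose, Zfp36 and Dusp1 fell, and Jun, Fosb and Atf3 did not pass the test. The comparison set the mean of the 4 tumour groups against the mean of the 4 non-tumour groups by limma on log2(CPM + 1), with Benjamini-Hochberg adjustment over 13586 genes and a threshold of 0.05. Of the 10 genes, 5 were thus called up and 2 down, against a background of 36.6% of all tested genes called up and 27.0% called down. With so many genes called, these shares describe the genes and do not set them apart. The median log2 fold change was 0.64 over the 10 genes and 0.09 over all genes tested. In bulk tissue, fewer cells of a type and less RNA per cell cannot be told apart.

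**Figure D1:**
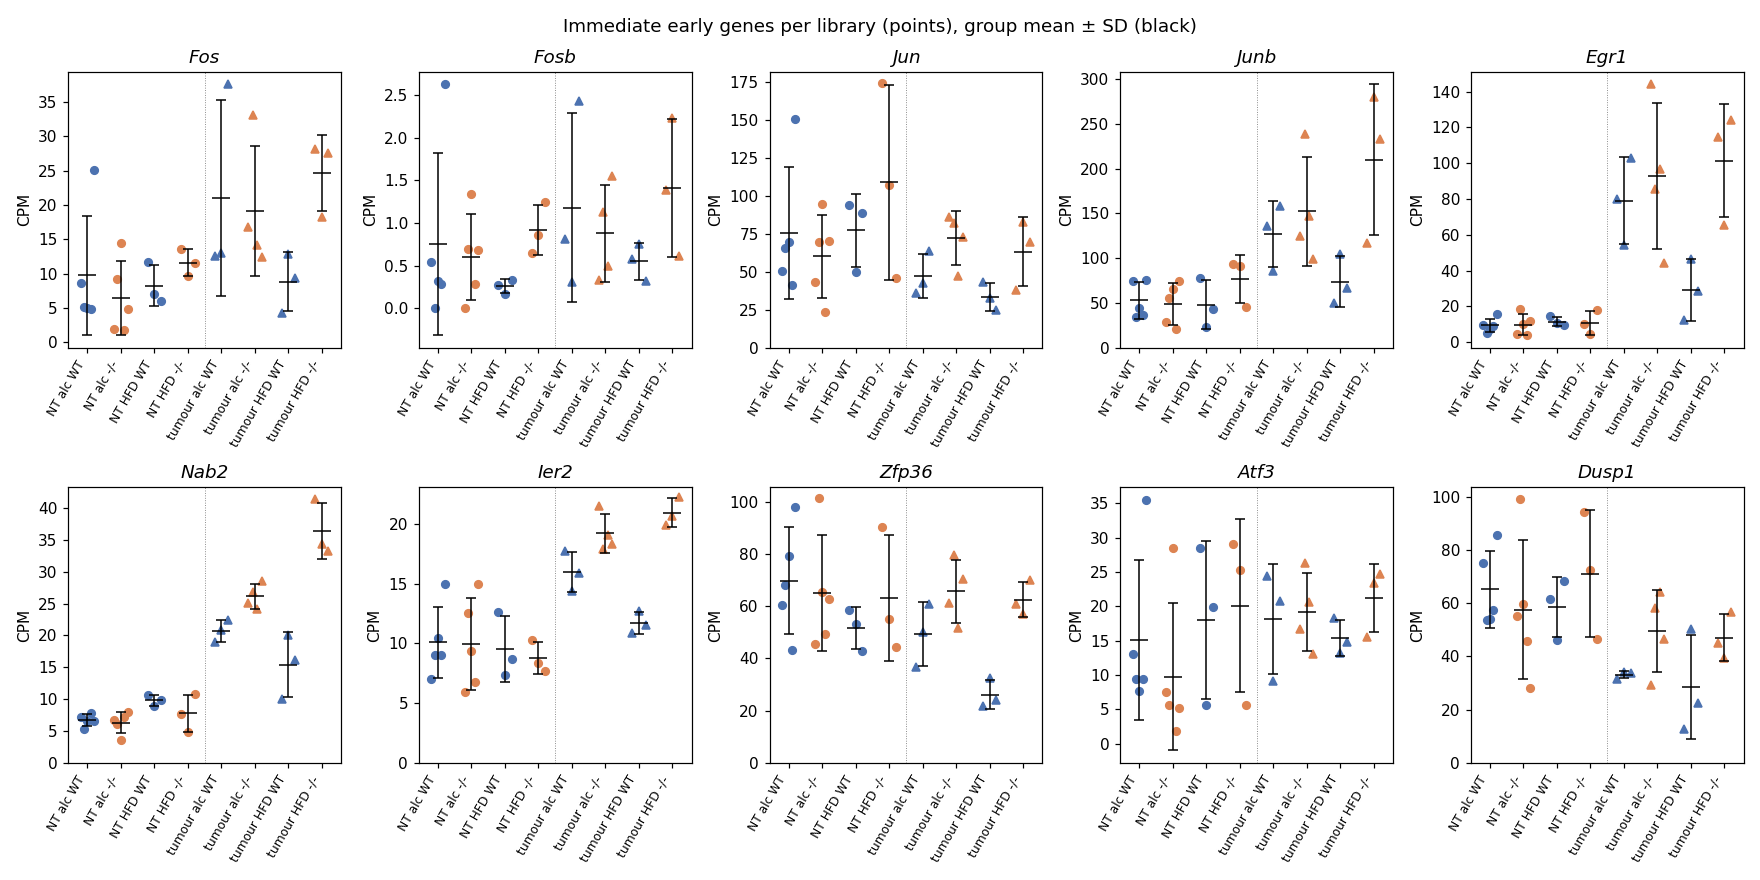
CPM (linear axis) of each of the 10 genes in each library, by group; circles are non-tumour libraries, triangles are tumours, blue is WT, orange is labelled IL17RA-/- ("-/-"), and black bars are the group mean ± SD. Egr1 and Nab2 are separated by tissue except in 1 WT HFD tumour, whereas Jun, Atf3 and Fosb overlap between tissues.

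Egr1 (chromosome 18, 34859823 to 34864984, plus strand, GRCm38) showed the largest difference of the 10. In non-tumour liver it ranged from 4.08 to 18.3 CPM with a median of 9.76 (n = 16), and in tumours from 12.4 to 144 CPM with a median of 80.1 (n = 13). Of the 13 tumours, 12 lay above every non-tumour library, and the exception was the WT HFD tumour 4 at 12.4 CPM. Egr1 averaged 79.0 ± 24.2 CPM (SD, n = 3) in WT alcohol tumours against 9.29 ± 3.88 (n = 5) in WT alcohol non-tumour liver. In the IL17RA-/- alcohol groups it averaged 92.8 ± 40.9 CPM (n = 4) against 9.80 ± 5.81 (n = 5). In the IL17RA-/- HFD groups it averaged 101 ± 31.7 CPM (n = 3) against 10.9 ± 6.69 (n = 3). The 3 WT HFD tumours were among the 4 lowest, at 12.4, 28.4 and 46.6 CPM against 9.33, 10.6 and 14.4 in WT HFD non-tumour liver. The log2 fold change averaged over groups was 2.63 (SE 0.24, limma adjusted p = 7.7e-10).

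Nab2 (chromosome 10, 127660918 to 127668568, minus strand), the corepressor of EGR proteins, also rose. Non-tumour libraries ranged from 3.56 to 10.8 CPM with a median of 7.17, and tumours from 9.98 to 41.4 CPM with a median of 24.2. The same WT HFD tumour 4 was again the single tumour within the non-tumour range. Nab2 varied little inside 3 of the 4 tumour groups: it averaged 20.7 ± 1.75 CPM (SD, n = 3) in WT alcohol tumours, 26.2 ± 1.96 (n = 4) in IL17RA-/- alcohol tumours and 36.4 ± 4.41 (n = 3) in IL17RA-/- HFD tumours. In WT HFD tumours it spread more, from 9.98 to 20.1 CPM, with a mean of 15.4 ± 5.11 (n = 3). The averaged log2 fold change was 1.53 (SE 0.11, limma adjusted p = 1.8e-11).

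Junb (chromosome 8, 84974484 to 84978718, minus strand) was the most strongly raised AP-1 subunit. It ranged from 20.4 to 93.5 CPM (median 50.5) in non-tumour liver and from 50.1 to 281 CPM (median 125) in tumours, and 10 of 13 tumours lay above every non-tumour library. Its averaged log2 fold change was 1.28 (SE 0.22, limma adjusted p = 2.4e-05). Fos (chromosome 12, 85473890 to 85477273, plus strand) ranged from 1.83 to 25.1 CPM (median 7.83) in non-tumour liver and from 4.29 to 37.6 CPM (median 14.2) in tumours. Only 4 tumours exceeded every non-tumour library. The highest non-tumour library, WT alcohol 5, reached 25.1 CPM while the other 15 stayed at or below 14.4. Some tumours lay below that level too, such as WT HFD 4 (4.29 CPM), WT HFD 6 (9.38) and IL17RA-/- alcohol 7 (12.4). The averaged log2 fold change of Fos was 0.96 (SE 0.27, limma adjusted p = 0.0035).

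Ier2 (chromosome 8, 84661331 to 84662852, minus strand) ranged from 5.93 to 15.0 CPM (median 9.04) in non-tumour liver and from 10.9 to 22.3 CPM (median 17.9) in tumours. The tumours not above the non-tumour range were 1 of the WT alcohol group and all 3 of the WT HFD group, which leaves 9 of 13 above it. The averaged log2 fold change was 0.77 (SE 0.12, limma adjusted p = 3.3e-06).

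The 2 other AP-1 subunits did not pass. Jun (chromosome 4, 95049034 to 95052222, minus strand) ranged from 23.3 to 174 CPM (median 69.4) in non-tumour liver and from 24.5 to 86.2 CPM (median 46.9) in tumours, with a log2 fold change of -0.50 (SE 0.22, limma adjusted p = 0.0542). It passed, as a fall, after median-ratio rescaling (adjusted p = 0.0277) and without the 4 doubted libraries (adjusted p = 0.021), so its call rests on the setting. Fosb (chromosome 7, 19302696 to 19310051, minus strand) reached at most 2.62 CPM in non-tumour liver and 2.42 CPM in tumours, near the counting floor, with a log2 fold change of 0.29 (SE 0.18, adjusted p = 0.163). Jun and Junb, whose proteins compete for the same partners, thus stood on opposite sides of 0, though only Junb passed.

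Of the stress and feedback genes, Atf3 (chromosome 1, 191170296 to 191218039, minus strand) spread widely in non-tumour liver, from 1.83 to 35.5 CPM (median 9.48), and less in tumours, from 9.12 to 26.3 CPM (median 18.3). Its log2 fold change was 0.51 (SE 0.31, limma adjusted p = 0.15). Dusp1 (chromosome 17, 26505590 to 26562128, minus strand) ranged from 28.1 to 99.2 CPM (median 58.7) in non-tumour liver and from 12.9 to 64.1 CPM (median 39.4) in tumours, and its fall averaged -0.71 on the log2 scale (SE 0.18, limma adjusted p = 0.0013). For Dusp1 the log2 fold change was -0.93 in WT alcohol and -1.20 in WT HFD libraries. In IL17RA-/- libraries it was -0.16 with alcohol and -0.54 with HFD. The WT alcohol tumours were closely grouped for Dusp1, at 31.7, 34.0 and 33.6 CPM. All lay below the 5 WT alcohol non-tumour libraries, whose lowest value was 53.8. Of all genes tested, 20% were likewise lower without overlap in this comparison. Zfp36 (chromosome 7, 28376784 to 28380253, minus strand) ranged from 42.8 to 102 CPM (median 59.6) in non-tumour liver and from 21.7 to 79.4 CPM (median 56.9) in tumours. Its fall averaged -0.33 on the log2 scale (SE 0.13, limma adjusted p = 0.0317), and leaving out 1 library at a time removed the call in 6 of 29 cases, with adjusted p from 0.0514 to 0.0804. In the WT groups the log2 fold change of Zfp36 was -0.47 with alcohol, which did not pass (limma adjusted p = 0.159). With HFD it was -0.96, which passed (adjusted p = 0.0227). In the IL17RA-/- groups its log2 fold change was 0.06 with alcohol and 0.04 with HFD. Whether the change of Zfp36 differed between genotypes was tested with HFD only, and did not pass (limma adjusted p = 0.238). The 4 tumours below every non-tumour library for Zfp36 were the 3 WT HFD tumours and the WT alcohol tumour 4.

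Within each diet and genotype, the number of genes called differed. In WT alcohol libraries Egr1, Nab2, Junb and Ier2 rose (4 of 10, against 16.6% of all genes called up) and Dusp1 fell (1 of 10, against 19.2% called down). In IL17RA-/- alcohol libraries Egr1, Nab2, Junb, Fos and Ier2 rose (5 of 10, against 21.8%). In IL17RA-/- HFD libraries Egr1, Nab2, Ier2 and Junb rose (4 of 10, against 23.9%). In WT HFD libraries no gene of the 10 rose (0 of 10, against 7.64%), while Zfp36 and Dusp1 fell (2 of 10, against 7.61%). The largest log2 fold change was that of Egr1 in 3 of these comparisons, at 2.99 (SE 0.46), 3.18 (SE 0.42) and 3.21 (SE 0.51) for WT alcohol, IL17RA-/- alcohol and IL17RA-/- HFD (limma adjusted p = 1.4e-05, 2.3e-06 and 3.0e-05). When 1 library at a time was left out, the WT alcohol calls of Egr1 and Nab2 remained, whereas Dusp1 lost its call in 5 of 8 cases, and Junb and Ier2 each in 3 of 8. In IL17RA-/- HFD libraries Junb lost its call in 3 of 6 cases, and also without the 4 doubted libraries (1.08, adjusted p = 0.0842).

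In WT HFD libraries, Egr1 differed by 1.12 (SE 0.51, limma adjusted p = 0.147) and Nab2 by 0.56 (SE 0.24, adjusted p = 0.121) on the log2 scale. Without the WT HFD tumour 4, the values were 1.61 for Egr1 (adjusted p = 0.0346) and 0.82 for Nab2 (adjusted p = 0.0175), and both passed. Without that same library neither Zfp36 (-0.84, adjusted p = 0.0647) nor Dusp1 (-0.76, adjusted p = 0.185) passed, so which genes were called changed without it. Zfp36 lost its call in 4 of 6 cases of leaving out 1 library, and Dusp1 in 5 of 6, non-tumour libraries included. The change to Egr1 and Nab2 was also seen without all 4 doubted libraries, when Egr1 and Nab2 were called up and none down.

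**Figure D2:**
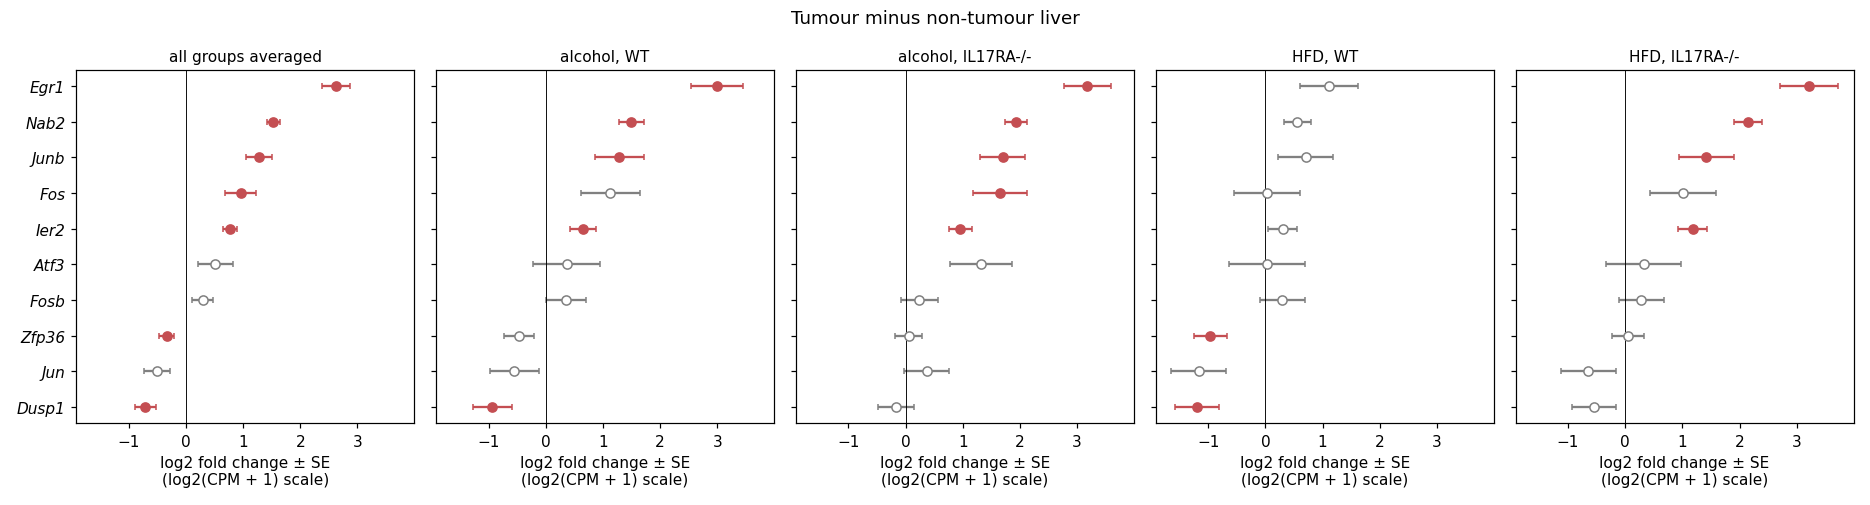
Log2 fold change (log2(CPM + 1) scale, horizontal axis) of each gene, tumour minus non-tumour liver, with its SE, averaged over groups and within each diet and genotype; filled red points are called at adjusted p under 0.05. Egr1, Nab2, Junb and Ier2 are called up in each panel but WT HFD, and Fos in the averaged and IL17RA-/- alcohol panels. Zfp36 and Dusp1 are called down in the averaged and WT HFD panels, and Dusp1 also in WT alcohol.

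Cell type markers moved with tissue as well, where 36.6% of all tested genes were called up and 27.0% called down. Of 11 Kupffer cell markers 10 fell in tumours, and their summed level was 283 to 1966 CPM in non-tumour liver and 172 to 656 CPM in tumours. Of 7 cholangiocyte markers 6 rose, with sums of 24.3 to 139 CPM against 90.5 to 1678 CPM. Of 10 stellate and fibroblast markers 6 rose and 2 fell. The summed level of 10 hepatocyte markers was 72690 to 110900 CPM in non-tumour liver and 100500 to 210100 CPM in tumours. Single hepatocyte markers went both ways, as in WT alcohol libraries, where 4 rose and 4 fell. The 8 endothelial markers gave 2 falls and no rise, and of the neutrophil markers 4 of 8 were tested and none was called, Ly6g being at 0 in every non-tumour library. The part of these cells in the differences of Egr1, Nab2 and the others was not tested.

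The wider early response and its regulators showed mixed directions in the same averaged tumour comparison. Its background was 36.6% of all tested genes called up and 27.0% called down. Of the 12 other AP-1 subunits and partners, 10 were tested, 4 rose (Fosl2, Atf2, Maff and Mafk) and 1 fell (Mafg), with a median log2 fold change of 0.07. Maff, a small MAF partner protein, averaged 32.2 ± 13.2 CPM (SD, n = 13) in tumours and 10.8 ± 6.58 (n = 16) in non-tumour liver, a log2 fold change of 1.50 (SE 0.25). Of 28 other immediate early genes 27 were tested, 9 rose (Egr2, Klf4, Klf6, Ier3, Ier5, Btg2, Rhob, Plk2 and Arc) and 2 fell (Nfkbia and Plk3), with a median of 0.28. Klf4, a zinc finger factor, averaged 12.2 ± 5.65 CPM in tumours and 2.81 ± 1.19 in non-tumour liver. Plk3, a stress-responsive kinase, averaged 42.0 ± 16.4 CPM in tumours and 97.1 ± 34.2 in non-tumour liver. Both shares of the other early genes were below the background of genes called up and down.

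Of 10 relatives of the feedback genes, 8 rose and none fell (Nab1, Zfp36l1, Zfp36l2, Dusp4, Dusp5, Dusp6, Dusp8 and Dusp16), with a median log2 fold change of 0.58. The background was 36.6% of genes called up and 27.0% called down. Dusp5, a phosphatase of nuclear ERK, averaged 31.5 ± 11.2 CPM (SD, n = 13) in tumours and 2.70 ± 1.75 (n = 16) in non-tumour liver, a log2 fold change of 3.07 (SE 0.22, limma adjusted p = 1.8e-11). Dusp4 averaged 40.3 ± 12.2 CPM against 5.16 ± 1.96, and Dusp6, the cytoplasmic ERK phosphatase, 214 ± 40.0 against 107 ± 23.6. Thus Dusp4, Dusp5 and Dusp6 rose in the averaged comparison in which Dusp1 fell. In the same comparison Zfp36l1 (130 ± 38.6 against 68.7 ± 15.1 CPM) rose while Zfp36 fell, though Zfp36 did not fall within the IL17RA-/- groups. Nab1, like Nab2, rose. Whether the relatives differ from the 10 genes was not tested.

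Of 20 kinases and factors upstream, 9 rose and 6 fell. For this and the next 3 lists the background was 36.6% of genes called up and 27.0% called down. Mapk3, which encodes ERK1, averaged 37.2 ± 7.36 CPM (SD, n = 13) in tumours against 18.5 ± 2.66 (n = 16) in non-tumour liver. Among 12 mRNAs known as targets of tristetraprolin, 9 were tested, 4 rose (Cxcl1, Ier3, Ptgs2 and Vegfa) and none fell. A relation of these targets to Zfp36 was not tested. Cxcl1, a neutrophil chemokine, averaged 47.3 ± 18.1 CPM in tumours and 13.2 ± 6.69 in non-tumour liver. Of 10 heat shock genes none rose and 4 fell, and of 14 clock genes 3 rose and 4 fell.

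Between the genotype labels in HFD tumours, all 10 genes had a higher mean in the IL17RA-/- HFD tumours than in the WT HFD tumours, with a median log2 fold change of 1.06 against -0.09 over all genes, and Nab2, Ier2 and Zfp36 passed the test. These 3 of 10 compare with a background of 0.603% of 13269 genes called up. At an unadjusted p under 0.05, 8 of 10 genes were higher, against a background of 8.52%. For 6 of the 10 (Egr1, Fos, Ier2, Junb, Nab2 and Zfp36) every IL17RA-/- tumour lay above every WT tumour, against a background of 8.15% of genes. The genes were selected with earlier results of these data known, so these shares describe them and are no independent evidence.

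Zfp36 was at 56.9, 60.7 and 69.9 CPM in the IL17RA-/- HFD tumours and at 21.7, 24.2 and 32.5 CPM in the WT HFD tumours. The groups did not overlap, and the log2 fold change was 1.24 (SE 0.22, limma adjusted p = 0.0315). Nab2 was at 33.3, 34.4 and 41.4 CPM against 9.98, 16.2 and 20.1 CPM, a log2 fold change of 1.23 (SE 0.21, adjusted p = 0.0315). Ier2 was at 20.0, 20.6 and 22.3 CPM against 10.9, 11.6 and 12.7 CPM, a log2 fold change of 0.79 (SE 0.16, adjusted p = 0.0373). For Ier2 the spread inside both groups was small, with SDs of 1.19 and 0.906 CPM.

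Egr1 showed a larger difference with a larger spread. It was at 65.3, 114 and 124 CPM in the IL17RA-/- HFD tumours and at 12.4, 28.4 and 46.6 CPM in the WT HFD tumours, a log2 fold change of 1.89 (SE 0.46) that missed the threshold (limma adjusted p = 0.0552). Junb was at 117, 233 and 281 CPM against 50.1, 66.5 and 105 CPM, a log2 fold change of 1.47 (SE 0.38, adjusted p = 0.0615). Fos was at 18.2, 27.6 and 28.1 CPM against 4.29, 9.38 and 12.9 CPM, a log2 fold change of 1.47 (SE 0.46, adjusted p = 0.0958). None of these 3 overlapped between the groups, and none passed. Jun (0.87), Dusp1 (0.89), Fosb (0.59) and Atf3 (0.42) had smaller log2 fold changes, with adjusted p from 0.136 to 0.48 by limma.

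The calls in HFD tumours depended on single libraries. They fell from 3 to 0 without the WT tumour 4 and likewise without IL17RA-/- tumour 4, 5 or 6. They fell to 1 without the WT tumour 6, and rose to 7 without the WT tumour 5. Over all genes tested, calls went from 213 to 0 without IL17RA-/- tumour 4 and to 1174 without the WT tumour 5. This dependence was therefore not confined to the genes examined here. The log2 fold changes of Zfp36, Nab2 and Ier2 moved less. Without the WT tumour 4 they were 1.12 for Zfp36 (limma adjusted p = 0.0993), 0.97 for Nab2 (adjusted p = 0.0781) and 0.74 for Ier2 (adjusted p = 0.105). Without IL17RA-/- tumour 5 they were slightly larger than in the full fit, at 1.305, 1.266 and 0.798, and still none passed. Without the 4 doubted libraries none of the 3 passed, with adjusted p from 0.115 to 0.147.

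**Figure D3:**
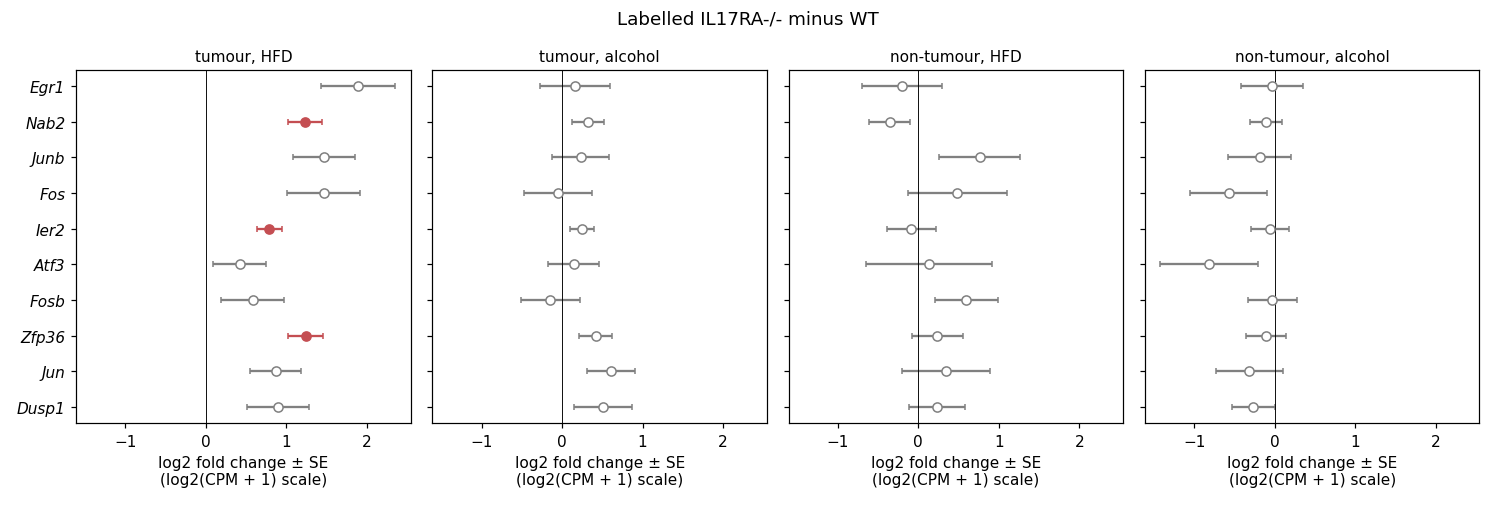
Log2 fold change (log2(CPM + 1) scale, horizontal axis) of each gene, labelled IL17RA-/- minus WT, with its SE, in 4 settings of tissue and diet; filled red points are called at adjusted p under 0.05. All 10 values are above 0 in HFD tumours, and 3 are called, while no gene is called in the other 3 panels.

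Markers of other cells also differed in mean between the same HFD tumours. All 10 monocyte-derived macrophage markers had a lower mean in the IL17RA-/- HFD tumours and none was called, with a median log2 fold change of -1.02 and sums of 220 to 281 CPM against 347 to 546 CPM in WT. The 7 T and NK cell markers tested were also all lower in mean, with none called and sums of 3.74 to 17.0 CPM against 10.2 to 55.5 CPM. Of 7 cholangiocyte markers 2 were higher and 5 lower in mean, none called, with sums of 219 to 276 CPM against 354 to 1678 CPM. All 8 endothelial markers were higher in mean, with a median of 0.33, and sums of 461 to 530 CPM against 260 to 470 CPM. Of 10 hepatocyte markers 7 were higher in mean, and none of these or of the endothelial markers was called. The 4 neutrophil markers tested were all lower in mean, with a median of -0.56, sums of 7.21 to 10.6 CPM against 7.89 to 24.8 CPM and none called, and Ly6g was at 0 in every group except the WT HFD tumours. The part of these cells in the differences of Zfp36, Nab2 and Ier2 was not tested.

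Among related genes, the other 27 immediate early genes tested gave no call in HFD tumours, with 15 higher in mean and a median log2 fold change of 0.04. The 10 other AP-1 genes tested gave none either, with a median of 0.00. Vegfa, a tristetraprolin target, rose from 52.0 ± 12.6 CPM (SD, n = 3) in WT to 161 ± 57.3 (n = 3) in IL17RA-/- HFD tumours, a log2 fold change of 1.57 (SE 0.35, limma adjusted p = 0.0448), while only 2 of the 9 tested targets were higher in mean. Of 14 clock genes, Per1 (25.5 ± 14.0 against 76.7 ± 2.14 CPM) and Nr1d1 (33.5 ± 9.92 against 78.0 ± 3.74 CPM) rose, with adjusted p = 0.0319 and 0.0405. Per1, a clock repressor, is also known as a gene that responds early to CREB.

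In alcohol tumours the genotype labels gave no call, for any of the 10 or for any gene (0 of 13269, 0% called), and no gene of the 10 had an unadjusted p under 0.05. Ier2 and Nab2 nonetheless did not overlap between the groups, being higher in every IL17RA-/- library (2 of 10, against 3.29% of genes), with log2 fold changes of 0.25 (SE 0.15) and 0.32 (SE 0.20). Non-tumour liver gave no call between genotypes with alcohol (0% of 12829 genes) or with HFD (0%), and no gene of the 10 had an unadjusted p under 0.05 in either. With HFD, Fosb was higher in every IL17RA-/- library (1 of 10, against 1.09% of genes). It was at 0.655 to 1.24 CPM against 0.170 to 0.337 CPM in WT, near the counting floor. With alcohol all 10 had a lower mean on the log2 scale in the IL17RA-/- libraries, from -0.03 for Fosb to -0.81 for Atf3. The median was -0.15, against 0.014 over all genes.

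The difference between genotypes in HFD tumours was tested against that in alcohol tumours. All 10 genes had a positive interaction, with a median log2 value of 0.78, and 6 of 10 had an unadjusted p under 0.05, against a background of 3.11% of genes in this direction, but none passed after adjustment, nor did any other gene (0%). The smallest adjusted p by limma among the 10 was 0.302, for Nab2 (0.91, SE 0.29). Against the genotype difference in HFD non-tumour liver, 4 of 10 had a positive difference at an unadjusted p under 0.05, against 8.23% of genes, and none passed, where 0.00736% of genes were called. Nab2 came closest, with a difference of 1.59 (SE 0.34, limma adjusted p = 0.0679), followed by Egr1 with 2.10 (SE 0.72, adjusted p = 0.18). Without the WT HFD tumour 5 both passed (Nab2 1.79, adjusted p = 0.0057, and Egr1 2.52, adjusted p = 0.0421). Without the WT HFD tumour 4 neither did (Nab2 1.32, adjusted p = 0.217, and Egr1 1.61, adjusted p = 0.38). In the non-tumour libraries the interaction of genotype and diet gave no call (0%) and no unadjusted p under 0.05 among the 10.

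Alcohol and HFD were compared within each tissue and genotype. In WT tumours all 10 genes had a higher mean with alcohol, with a median log2 fold change of 0.47 against -0.17 over all genes, 4 of 10 had an unadjusted p under 0.05 (background 2.74% in this direction), and none passed after adjustment (0.00754% of genes called). Egr1, Ier2 and Zfp36 did not overlap between the groups (3 of 10, against 3.16%). Zfp36 averaged 49.3 ± 12.1 CPM (SD, n = 3) in WT alcohol tumours and 26.1 ± 5.65 (n = 3) in WT HFD tumours, a log2 fold change of 0.88 (SE 0.22, limma adjusted p = 0.17). Egr1 differed by 1.54 (SE 0.46, adjusted p = 0.2) and Ier2 by 0.42 (SE 0.16, adjusted p = 0.236). Markers of other cells were lower in mean with alcohol in the same tumours, none of them called: 10 of 10 for monocyte-derived macrophages (sums of 152 to 380 CPM against 347 to 546), 7 of 7 tested for T and NK cells (3.33 to 11.3 against 10.2 to 55.5) and 7 of 7 for cholangiocytes (142 to 547 against 354 to 1678). Of 11 Kupffer cell markers 1 was higher, and of 10 hepatocyte markers 7. Their part in the differences of the 10 genes was not tested. This comparison shares its 3 WT HFD tumours with the genotype comparison in HFD tumours, so their values are not independent.

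In IL17RA-/- tumours no gene was called with diet (0%). Of the 10, 1 had an unadjusted p under 0.05, against 0.889% of genes lower at that level, namely Nab2 (log2 fold change -0.46, SE 0.20, limma adjusted p = 1). It averaged 26.2 ± 1.96 CPM (SD, n = 4) with alcohol and 36.4 ± 4.41 (n = 3) with HFD, and the groups did not overlap (2.78% of genes lower without overlap). Non-tumour liver gave no call with diet in WT (0%) or in IL17RA-/- libraries (0%). In WT non-tumour liver 1 of the 10 had an unadjusted p under 0.05 (against 3.28% of genes lower), again Nab2. It was lower with alcohol, without overlap (against 2.57% of genes) (6.72 ± 0.922 CPM, SD, n = 5, against 9.80 ± 0.897, n = 3), a log2 fold change of -0.49 (SE 0.23, limma adjusted p = 0.875). In IL17RA-/- non-tumour liver none had.

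Some libraries were high or low for many of the 10 genes at once. Among non-tumour libraries, WT alcohol 5 was in the top 3 of 16 for 8 of the 10 genes, with 2.62 CPM of Fosb where the other 4 of its group had at most 0.54. The IL17RA-/- HFD library 1 was above the non-tumour median for all 10. The IL17RA-/- alcohol libraries 1 and 4 were below that median for all 10. Among tumours, the WT HFD tumour 6 was in the bottom 3 of 13 for 9 genes and tumour 4 for 7, while the IL17RA-/- HFD tumour 6 was in the top 3 for 7 genes and the IL17RA-/- alcohol tumour 5 for 6. These ranks are over all libraries of a tissue and so include the differences between groups.

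Pearson correlations of log2(CPM + 1) were computed for all 45 pairs of the genes in each tissue, with permutation p-values for Pearson's r and Spearman's rho adjusted by Benjamini-Hochberg over the 90 pairs. The points of a pair share their library, so depth and cell makeup enter both genes. In non-tumour liver 37 of 45 correlations were positive and 8 pairs passed by both measures, with a median r of 0.48. All 8 negative values there belonged to Nab2, which was positive only with Egr1. In tumours all 45 were positive and 7 pairs passed, with a median r of 0.65. As deviations from the group means, 38 of 45 were positive in non-tumour liver (median 0.51; 7 of the negative pairs held Nab2 and 0 did not) and 36 of 45 in tumours (median 0.31; 2 of the negative pairs held Nab2 and 7 did not). The closest pair in non-tumour liver was Jun and Atf3 (r = 0.85, rho = 0.77, n = 16, permutation adjusted p = 0.0036 and 0.0222, and r = 0.78 without the 2 libraries farthest in Jun). In tumours the same pair gave r = 0.40 (rho = 0.38, n = 13, permutation adjusted p = 0.241 and 0.271). Whether the 2 tissues differ was not tested.

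Egr1 and Nab2 gave r = 0.76 and rho = 0.58 in tumours (n = 13, permutation adjusted p = 0.0154 and 0.0919). Without the 2 tumours farthest in Egr1 r was 0.32, so its size depends on those, and within groups it was 0.51. In non-tumour liver Egr1 and Nab2 gave r = 0.38 and rho = 0.31 (n = 16, permutation adjusted p = 0.211 and 0.305). Nab2 and Ier2 gave r = 0.84 and rho = 0.85 in tumours (permutation adjusted p = 0.0036 and 0.0193), but 0.13 within groups, so that correlation lay between the groups. Fos and Egr1 gave r = 0.83 and rho = 0.79 in tumours (permutation adjusted p = 0.0048 and 0.0222), 0.69 without the 2 farthest, and 0.66 within groups.

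**Figure D4:**
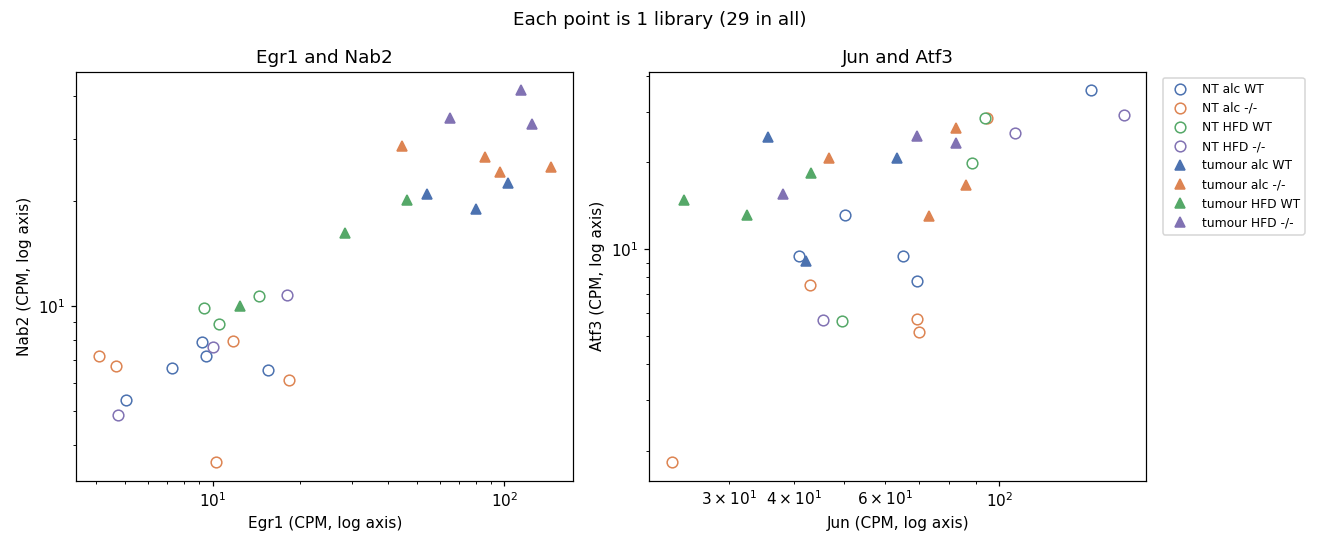
Nab2 against Egr1 (left) and Atf3 against Jun (right) in CPM on log axes, 1 point per library; open circles are non-tumour ("NT") libraries, filled triangles are tumours, and colours give diet ("alc" is alcohol) and genotype ("-/-" is labelled IL17RA-/-). In the left panel 12 of 13 tumours lie above every non-tumour library on both axes, and in the right panel the tissues overlap.

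By deviation from the group means over all 29 libraries, 5 genes outside the 10 followed their mean standardised pattern most closely among 10137 candidates averaging at least 5 CPM. They were Csrnp1 (Pearson r = 0.78), Trib1 (0.76), Ppp1r15a (0.68), Socs3 (0.68) and Nr4a1 (0.67). Csrnp1 averaged 15.0 CPM in non-tumour liver and 13.6 in tumours, and Nr4a1 9.72 and 8.81, with a range over libraries from 1.12 to 40.7. These values are descriptions, and the genes were picked for their correlation.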

How the data were processed

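PolyA RNA libraries were made with a strand-specific kit, per the labels' protocols. The authors deposited a single table of CPM values with 1 column per library, each summing to 1000000. The 10 highest genes of a library held 14.6% to 32.2% of that total, so a change in them shifts the CPM of all others. The submitters' processing notes name STAR 2.5.1a, RSEM 1.3.0 and GRCm38; annotation and strand setting were not stated there. Ensembl IDs were matched to GENCODE M21 symbols (21653 of 22187). From the steps of the CPM values, library totals of 3213696 to 9660585 counts were recovered, and 83.2% to 85.9% of values were whole counts within 0.002.

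Genes reaching 1 CPM in 3 or more of a fit's libraries were tested with limma 3.58.1 (R 4.3.3, trend) on log2(CPM + 1), with 1 mean per group, two-sided, and Benjamini-Hochberg adjustment over all genes tested. The fold changes understate those of low genes. Comparisons within tissue used its 16 or 13 libraries, and those between tissues all 29. The pipeline was tested on simulated data. Alternatives were another pseudocount, no filter, median-ratio rescaling, other libraries in the fit, a replicate block, limma-voom on recovered counts, and leaving out libraries. The 10 genes are named in every comparison; of other lists, genes called or at most 2. The members and lists were chosen with earlier results of these data known. In 1 comparison, diet in WT non-tumour liver, every library with a shared number matched its same-numbered library best (r = 0.33, 0.257 and 0.13). The block gave no call there either. The highest single value, 0.399, was that of replicate 1 between genotypes in alcohol non-tumour liver. Sequence of Egr1 was not used here.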

Additional observations from a re-analysis of the deposited data

How the results depend on the processing

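The number of the 10 genes called between genotypes in HFD tumours, 3 in the analysis reported, was 5 after median-ratio rescaling, 5 with all 29 libraries in the fit, 0 with the compared groups alone, 0 without the 4 doubted libraries (an alternative added after seeing the data), and 0 to 7 when 1 library was left out. Between tissues in WT HFD libraries, 2 became 0 with the compared groups alone and 0 to 2 with 1 library left out. In WT alcohol libraries, 5 became 3 with a replicate block and 2 to 5 with 1 library left out. The test of genotype by tissue with HFD went from 0 to between 0 and 2. Leaving out 1 library gave 6 to 8 genes for tumours averaged over groups, 5 to 6 for IL17RA-/- alcohol and 3 to 4 for IL17RA-/- HFD libraries. No called fold change reversed under any alternative run. The replicate block, used although the labels state no pairing, otherwise removed only the call of Ier2 in HFD tumours (adjusted p = 0.0605). No paired analysis was possible between tissues with HFD because those groups share no replicate number. Rescaling moved the log2 median of all genes by over 0.1 in 4 comparisons: diet in WT tumours (-0.17 to -0.01, and 0.47 to 0.63 over the 10 genes), genotype in HFD non-tumour liver (-0.12 to 0.00), and genotype by diet in non-tumour liver (-0.13 to 0.00) and in tumours (-0.17 to -0.02). Counts of 0 to 20 limit Fosb. The floor of 3 counts covers counting error only, whereas the SDs and SEs measure the spread between libraries.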
